A study of Mus musculus with 2 samples.

Results

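The genes of the ATP-binding cassette (ABC) family were examined in RNA sequencing of primary chondrocytes, the cells of cartilage, from control and Myl3-KO mice. The members were chosen by their symbol, which consists of Abc, a subfamily letter from a to g and a number, and 50 of the 22156 genes in the deposited table met this rule. They were selected as a group from the counts of the same control and Myl3-KO libraries that are compared here, so their differences are given as descriptions without a test. Subfamily A had 16 members, B 10, C 10, D 4, E 1, F 3 and G 6.

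The study asked how loss of Myl3, a myosin light chain, alters chondrocytes, and the series holds 1 library for each genotype. Myl3-KO mice carry Col2a1-Cre and Myl3 flox/flox on a C57BL/6 J background, so that Cre driven by the promoter of a cartilage collagen gene removes the floxed gene. The study's methods describe the controls as Myl3 flox/flox littermates, whereas the labels give their genotype as WT. The labels give rib cartilage as the source of both libraries, and the methods name rib and articular cartilage of newborn mice. Cells were kept as a monolayer in medium with serum and given no treatment. Whether cells of several animals were pooled is not stated in the sources used here. Deletion depends on Col2a1 promoter activity, so cells that never used that promoter keep the gene.

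ABC proteins bind and hydrolyse ATP. Most of them use it to move lipids, sterols, drugs, conjugated metabolites, peptides or metals across a membrane, either as full transporters or as smaller subunits that pair. Members of subfamilies E and F have the ATP-binding domains without a membrane domain and act on ribosomes and translation instead of transporting a substrate.

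Expected counts added up to 17612434.91 for the control library and 13477976.98 for the Myl3-KO library. A count of 3, taken as the floor, equalled 0.170 and 0.223 CPM (counts relative to the size of the library), respectively. Myl3 (ENSMUSG00000059741) was listed at 0 counts in both libraries, so it gave no check of the genotypes, and every direction below rests on the labels. Of 10 chondrocyte marker genes found in the table, 3 reached 10 counts in sum. Acan, Matn1, Matn3, Hapln1 and Cnmd had 0 counts in both libraries, Col2a1 had 30 control and 27 Myl3-KO counts, Sox9 had 866 and 480 (log2 ratio -0.47), and Col11a2 had 293 and 395 (log2 ratio 0.82). The cells are therefore called chondrocytes only as the labels do. Fibroblast markers summed to 18526 CPM in the control and 22016 in Myl3-KO, with 8 of 9 past the filter and Thy1 at 0. Col1a2 alone gave 12017 and 14039 CPM of these sums. Of the 8 markers, 5 were higher and 3 lower, with a median log2 ratio of 0.08. Over all genes past the filter 52.7% were above 0, with a median of 0.02. In the fibroblast list Dcn had a log2 ratio of -1.64 and Lum of -1.36, whereas Fn1 had 0.55. Of the 8 rows of macrophage and leukocyte markers 3 passed the filter, and they summed to 4.71 and 4.30 CPM. Mural cell markers summed to 30.2 and 37.9 CPM, adipocyte markers to 1.59 and 0.816, endothelial markers to 0.397 and 0.890, skeletal muscle markers to 0.284 and 0.0742, and erythroid markers to 0 and 0.0742 CPM. The part of these marker differences in the ABC values was not tested. In bulk libraries, fewer cells of a type and less RNA per cell cannot be told apart.

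Reads were counted per gene, which matters for the drug exporters Abcb1a (ENSMUSG00000040584) and Abcb1b (ENSMUSG00000028970). These genes encode the mouse forms of P-glycoprotein and lie side by side on chromosome 5 of GRCm38, Abcb1a from 8660077 to 8748575 and Abcb1b from 8798147 to 8866315, both on the plus strand. Their coding sequences were 3831 bases each and were 88.2% identical over 3819 aligned bases. The sequences below, from GENCODE M21, show why reads of this pair could be told apart in some places and not in others. The stretch of 90 bases that differed most has 29 mismatches, shown in capitals. It lies in exon 16, which encodes the linker between the N-terminal and C-terminal parts of the protein, at chr5:8714894-8714983 in Abcb1a and chr5:8827333-8827422 in Abcb1b.
Abcb1a, most different stretch: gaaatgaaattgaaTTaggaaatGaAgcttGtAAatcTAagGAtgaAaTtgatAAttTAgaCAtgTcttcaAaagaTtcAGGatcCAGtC
Abcb1b, most different stretch: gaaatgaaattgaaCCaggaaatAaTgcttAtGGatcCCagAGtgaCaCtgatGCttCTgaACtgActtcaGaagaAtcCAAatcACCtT
Within exon 12, which encodes the ATP-binding loop of the first nucleotide-binding domain, the genes shared identical sequence, and the longest identical run of their coding sequences was 338 bases. The following 90 bases have 0 mismatches and stand at chr5:8702153-8702242 in Abcb1a and at chr5:8824473-8824562 in Abcb1b.
Abcb1a and Abcb1b, identical stretch: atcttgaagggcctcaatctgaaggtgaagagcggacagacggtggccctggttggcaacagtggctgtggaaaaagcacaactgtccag
Of all words of 31 bases in their transcripts, the genes had 1186 in common, 21.7% of those of Abcb1a and 14.8% of those of Abcb1b. These were the only 2 members with counts that were not whole numbers, and their counts added up to whole numbers in each library. Abcb1b had 580.96 counts in control cells and 623.93 in Myl3-KO cells, and Abcb1a had 5.04 and 5.07. Abcb1b thus took 99.1% and 99.2% of the reads of the pair, and Abcb1a was near the limit of detection in both libraries. As the division of shared reads is an estimate, the 5 counts of Abcb1a are uncertain. Summed, the pair had 586 control and 629 Myl3-KO counts (log2 ratio 0.49, 95% interval 0.32 to 0.65).

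Promoters are shown for pairs of members from the same gene cluster, of which one had reads and the other had none. These sequences were chosen after the levels were seen. They are the RefSeq windows of GRCm38.p6 from 250 bases before to 50 bases after the annotated start, written 5′ to 3′ on the strand of the gene, with each CG dinucleotide in capitals. Abca3, which exports lipids into lamellar bodies, and the rodent gene Abca17 lie head to head on chromosome 17, separated by 0.882 kb. Abca3 had 895 control and 904 Myl3-KO counts, and Abca17 had 0 in both. The window of Abca3 is chr17:24351773-24352072 on the plus strand and that of Abca17 is chr17:24351010-24351309 on the minus strand.
Abca3: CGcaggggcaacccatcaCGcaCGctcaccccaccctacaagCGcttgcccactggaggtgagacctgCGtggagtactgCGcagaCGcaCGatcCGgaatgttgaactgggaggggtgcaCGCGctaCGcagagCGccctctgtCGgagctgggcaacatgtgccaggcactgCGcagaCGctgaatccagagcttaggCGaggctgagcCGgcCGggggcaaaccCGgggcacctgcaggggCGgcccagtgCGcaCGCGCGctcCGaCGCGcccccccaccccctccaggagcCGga
Abca17: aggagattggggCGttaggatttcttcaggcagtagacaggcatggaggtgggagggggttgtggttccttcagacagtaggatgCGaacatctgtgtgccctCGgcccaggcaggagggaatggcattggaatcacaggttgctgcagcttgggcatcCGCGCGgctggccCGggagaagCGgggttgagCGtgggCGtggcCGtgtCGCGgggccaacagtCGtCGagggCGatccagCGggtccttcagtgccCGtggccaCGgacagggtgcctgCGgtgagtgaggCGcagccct
The window of Abca3 holds 29 CG dinucleotides and that of Abca17 holds 21, so the member without reads also had a CG-rich start. On chromosome 11, Abca5 (1182 and 725 counts) and Abca8a (0 in both) belong to a run of related genes on the minus strand. Their windows are chr11:110337667-110337966 and chr11:110095888-110096187.
Abca5: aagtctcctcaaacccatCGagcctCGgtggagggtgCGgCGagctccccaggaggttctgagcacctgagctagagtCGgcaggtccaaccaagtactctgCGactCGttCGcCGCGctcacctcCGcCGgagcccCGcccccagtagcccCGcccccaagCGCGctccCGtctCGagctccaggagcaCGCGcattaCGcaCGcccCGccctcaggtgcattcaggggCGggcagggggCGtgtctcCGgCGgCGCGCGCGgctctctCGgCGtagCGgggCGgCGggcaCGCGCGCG
Abca8a: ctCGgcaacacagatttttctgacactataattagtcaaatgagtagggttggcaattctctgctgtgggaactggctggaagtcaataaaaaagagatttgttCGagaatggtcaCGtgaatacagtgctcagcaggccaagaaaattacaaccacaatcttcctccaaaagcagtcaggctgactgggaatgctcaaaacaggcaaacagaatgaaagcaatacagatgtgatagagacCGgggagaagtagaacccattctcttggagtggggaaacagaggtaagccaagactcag
Here the window of the member with reads holds 40 CG dinucleotides and the other 4. These genes are not adjacent, as Abca6 and Abca9 lie between them. Abca9, which is 4.771 kb from Abca8a, had 108 and 105 counts and 2 CG dinucleotides, fewer than Abca8a.

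A promoter window was found for 38 of the 50 members. The median number of CG dinucleotides per window was 26.5 in the 18 members with 100 or more counts in sum and 10 in the 16 members under 10 counts. Over all genes the medians were 23 (8200 genes) and 4 (6683 genes), so the members followed the pattern of the table. Single members departed from it. Abca9 had 2 CG dinucleotides and 108 and 105 counts, and Abca14 had 22 and no reads. The letters GGGCGG, searched on both strands, occurred in 12 of the 18 windows (66.7%) and in 3 of the 16 (18.8%). Over all genes they occurred in 72.6% of windows at 100 or more counts, in 24.8% under 10 counts and in 51.3% of all 16113 matched. The letters TATAAA, also searched on both strands, occurred in 1 of the 18 and 3 of the 16, beside 7.93% and 22.7% of genes in the same classes and 14.3% of all. A match is a description of the letters in these windows only.

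Of the 50 members, 29 reached 10 counts when both libraries were summed, 24 of them reached 100, and 21 did not reach 10. The family had 32966 counts (0.187%) of the control library and 25078 (0.186%) of the Myl3-KO library, so its summed share was nearly the same in both (log2 ratio -0.01, 95% interval -0.03 to 0.02). Per gene length, the most abundant members were the translation factors Abce1, Abcf2 and Abcf1. Abce1 had 126.18 FPKM (reads scaled to the length of the gene and to the library) in the control and 101.44 in Myl3-KO, followed by Abcf2 with 90.57 and 73.10 FPKM and Abcf1 with 54.23 and 54.22 FPKM. Among the transporters Abcc5 was highest at 30.39 and 35.64 FPKM, with Abcc1 at 24.54 and 27.56 FPKM. Abcf3, the remaining member of subfamily F, lay below both at 20.82 and 21.13 FPKM. Abce1 alone held 25.6% of the family's reads in the control and 20.7% in Myl3-KO.

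**Figure D1:**
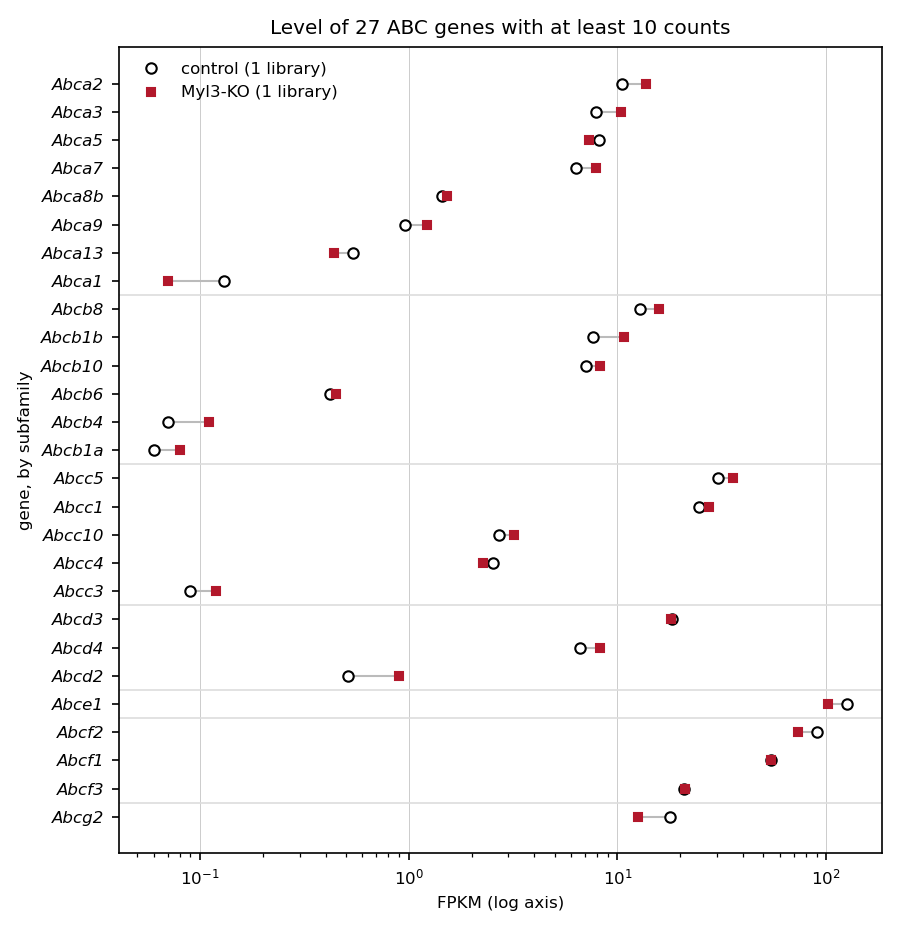
FPKM (log axis) of 27 ABC genes with 10 or more counts in sum, ordered by subfamily, in the control library (open circles) and the Myl3-KO library (red squares), 1 library each. Abce1 was highest at 126.18 and 101.44 FPKM, and Abcb1a was lowest in the control at 0.06 FPKM.

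By their measured values, no member differed by 2-fold between the libraries. The log2 ratio of CPM, Myl3-KO over control, was at least 1 in 0 of the 29 members (2.16% of all 12431 genes past the same filter) and -1 or below in 0 (1.19% of all). With a limit of 0.5, 1 member was higher, Abcd2 (7.99% of all genes), and 1 was lower, Abca1 (3.75% of all). The ratio was above 0 in 19 members and below 0 in 10, and it was above 0 in 52.7% of all genes past the filter. With at least 100 counts, it was above 0 in 15 of 24 members and in 51.5% of all genes. The median ratio was 0.22 over the 29 members and 0.20 over the 24, beside 0.02 and 0.01 over all genes with the same minimum. With a filter of at least 10 counts in each library the members' median was 0.13. Because the members were picked on this contrast, nothing is read from these shares. All differences lack a replicate check, and the intervals are 95% Clopper-Pearson intervals that cover counting error only.

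**Figure D2:**
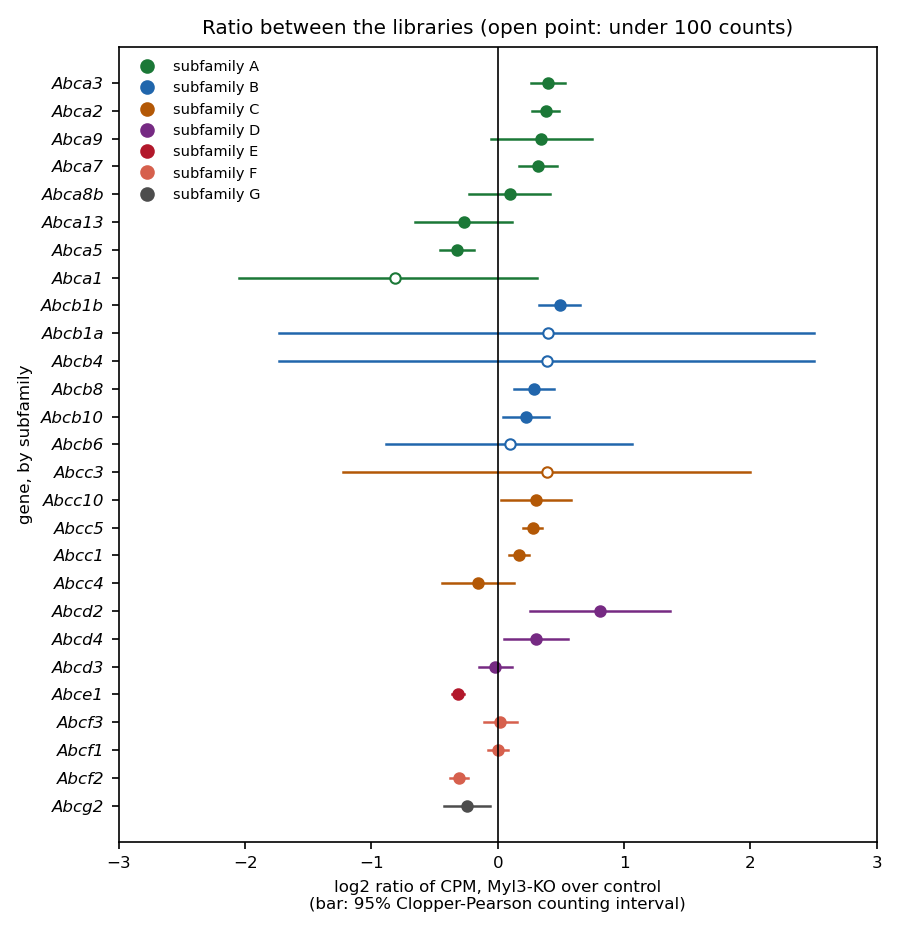
Log2 ratio of CPM (Myl3-KO over control, 1 library each) for 27 ABC genes with at least 10 counts, coloured by subfamily, with bars for the 95% Clopper-Pearson counting interval and open points under 100 counts. Abcd2 at 0.81 and Abca1 at -0.82 stood at the ends, and Abce1 had the narrowest bar.

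The summed reads of the subfamilies are given as a description of these libraries. Subfamilies E and F, the ATPases of translation, went from 947.0 CPM in the control to 809.2 CPM in Myl3-KO (log2 ratio of sums -0.23, 95% interval -0.26 to -0.19). Subfamilies A to D and G, the transporters, went from 924.7 to 1051 CPM (log2 ratio of sums 0.19, 95% interval 0.15 to 0.22). Of the 25 transporters past the filter 18 were higher and 7 lower in Myl3-KO, and their median ratio was 0.29. The 18 include Abcb4 (5 counts in each library), Abcc3 (8 in each) and Abcb1a (5.04 and 5.07). Their few counts were nearly equal, so they were higher only relative to the smaller Myl3-KO library. Among all genes 52.7% were above 0 past the same filter, and with at least 100 counts 60.4% of those from 4 to 6 kb and 64.5% of those over 6 kb were. By subfamily the log2 ratio of sums was 0.19 for A, 0.21 for B, 0.21 for C, 0.16 for D, -0.31 for E, -0.14 for F and -0.24 for G. The signs of these sums were set by few genes in E, F and G, where 1, 3 and 1 members passed the filter.

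**Figure D3:**
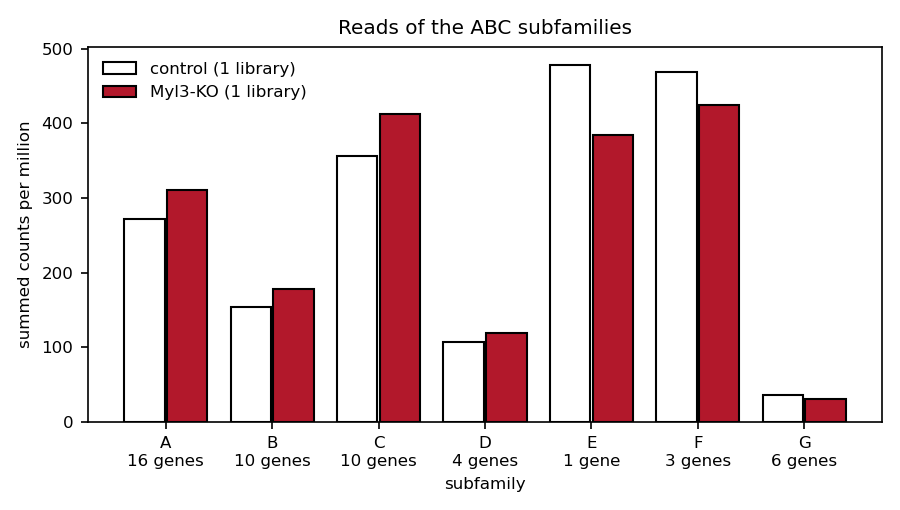
Summed CPM of each ABC subfamily in the control (white bars) and Myl3-KO (red bars) library, 1 library each, with the number of member genes under each letter. Subfamilies A to D were higher and E to G lower in Myl3-KO.

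Transcript length moved with these ratios across the whole table. This was examined in the 10390 genes with at least 100 counts and a coding transcript. Their median log2 ratio was -0.08 under 2 kb, 0.01 from 2 to 4 kb, 0.05 from 4 to 6 kb and 0.08 over 6 kb. The share of genes above 0 went from 35.3% to 64.5%. ABC transcripts are long, with a median of 5.60 kb in the 24 members beside 3.07 kb in all genes. No member lay in the shortest class, and the other classes held 8 members each, of which 4, 5 and 6 were above 0. Of all genes in these classes 52.4%, 60.4% and 64.5% were above 0. When the median of genes of like length and GC content was subtracted, the members' median went from 0.20 to 0.07, and that of the transporters from 0.28 to 0.12. The subtraction took 5 of the higher transporters below their counting intervals, namely Abca2 from 0.38 to 0.11, Abca3 from 0.40 to 0.19, Abca7 from 0.32 to 0.05, Abcc1 from 0.17 to 0.04 and Abcc5 from 0.27 to 0.14. Abcb8 went to 0.14, Abcb10 to 0.09 and Abcc10 to 0.13, within their intervals. Also within their intervals, Abca9 went from 0.35 to 0.40, Abca8b from 0.09 to 0.15 and Abcd4 from 0.30 to 0.26. Of the lower transporters, Abcc4 went from -0.16 to -0.29, Abca13 from -0.27 to -0.21 and Abcg2 from -0.25 to -0.19, likewise within their intervals. Abcb1b was 0.51 and Abcd2 0.86 after the subtraction. Abce1 went from -0.31 to -0.24 and Abcf1 from 0.00 to -0.10, both outside their intervals, and Abcf2 from -0.31 to -0.35. Abcd3 and Abcf3, both close to 0, changed sign. The subtraction joined length and GC content. At similar lengths, Abca2 (8.03 kb, 57.5% GC) went from 0.38 to 0.11, whereas Abca5 (8.23 kb, 39.8% GC) went from -0.32 to -0.27. The parts of length and of GC content in the members' ratios were not separated or tested further.

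**Figure D4:**
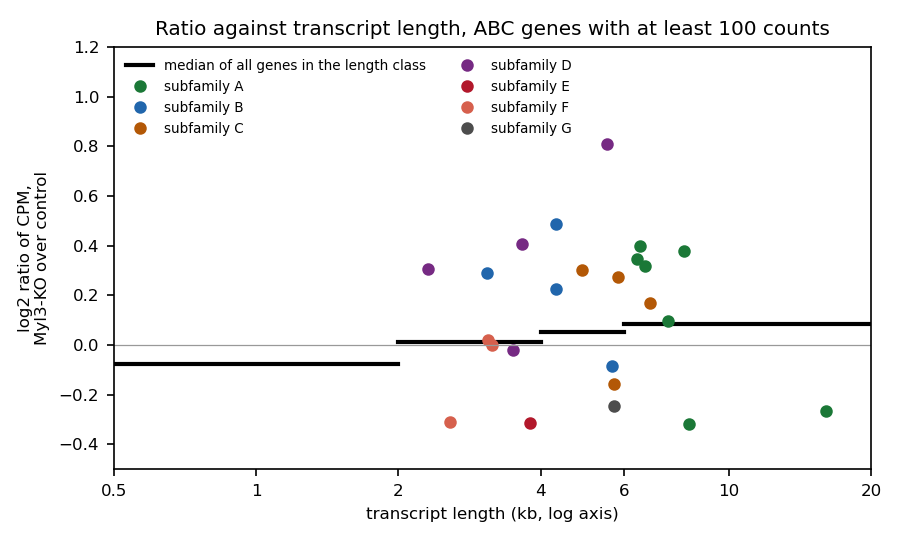
Log2 ratio of CPM (Myl3-KO over control, 1 library each) against transcript length in kb (log axis) for the 24 ABC genes with at least 100 counts, coloured by subfamily. Black lines give the median in each of 4 length classes, from -0.08 under 2 kb to 0.08 over 6 kb. They cover the 10390 genes with at least 100 counts and a coding transcript. Abcg2 stands at 5.72 kb, whereas its deposited FPKM implied 2.02 and 2.43 kb.

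**Figure D5:**
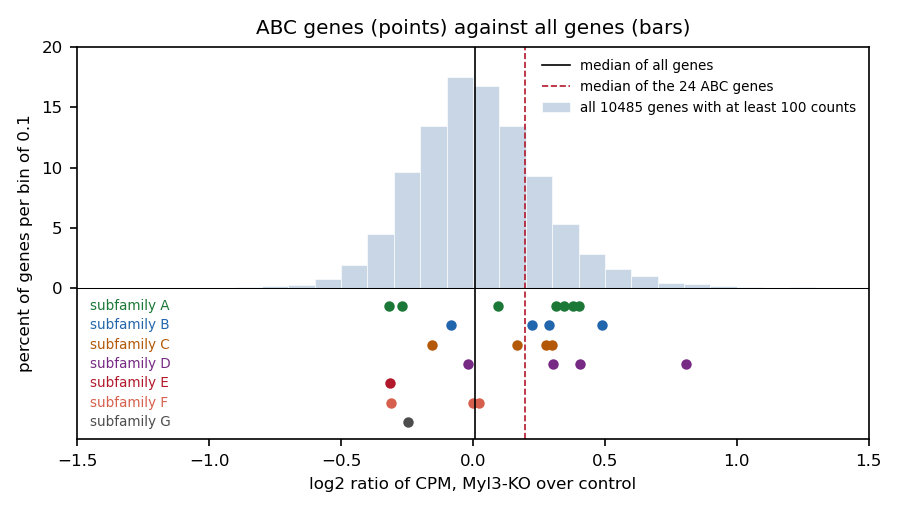
Log2 ratio of CPM for all 10485 genes with at least 100 counts (bars, percent of genes per bin of 0.1) and for the 24 ABC genes (points below, by subfamily), from 1 library per genotype. The median of the ABC genes (dashed line) was 0.20 and that of all genes (solid line) 0.01.

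Abce1, which splits ribosomes after termination, went from 8429 control to 5186 Myl3-KO counts (log2 ratio -0.31, 95% interval -0.36 to -0.26). Abcf2 had 4098 and 2531 counts and a ratio of -0.31 (-0.38 to -0.24). The other members of subfamily F showed little difference. Abcf1, which associates with initiation factor eIF2, had 3019 and 2310 counts and a ratio of 0.00 (-0.08 to 0.08), and Abcf3 had 1133 and 880 counts and 0.02 (-0.11 to 0.15). Subfamily F was thus not uniform, and its lower sum came from Abcf2. Of 6 genes of ribosome recycling and stalled ribosomes, all past the filter, 4 were higher and 2 lower, with a median ratio of 0.06. For this list and the lists below, 52.7% of all genes past the filter were above 0, with a median of 0.02. Eif2s1, the alpha subunit of eIF2, had 2408 and 1429 counts (-0.37), Etf1, the release factor, had 3449 and 2199 (-0.26), and Gcn1l1 had 5493 and 5029 (0.26). Pelo and Hbs1l, the ribosome rescue factors that work with Abce1, had ratios of 0.07 and 0.06.

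Sterol exporters were scarce. Abca1, which loads cholesterol onto apolipoprotein, had 23 control and 10 Myl3-KO counts, with an interval of the ratio from -2.05 to 0.31 that included 0. Its relatives Abcg1 (2 and 1 counts), Abcg4 (5 and 4), Abcg5 (0 and 2) and Abcg8 (0 in both) did not reach 10 counts. Abca7, which moves phospholipids, was the exception at 744 and 709 counts (6.33 and 7.88 FPKM, log2 ratio 0.32, 95% interval 0.17 to 0.47), although its ratio was 0.05 relative to genes of like length and GC content. Of 18 genes of sterol sensing and lipoproteins 17 passed the filter, of which 13 were higher and 4 lower with a median of 0.08. Over all genes past the filter 52.7% were above 0, with a median of 0.02. The LXR genes that control Abca1 were Nr1h2 with 997 and 804 counts and Nr1h3 with 8 and 7. Apoe had 99 and 101 counts, and no gene of this list differed by 0.5 or more.

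The other lipid transporters of subfamily A split into expressed and silent genes. Abca2, an endosomal and lysosomal transporter, had 1490 and 1482 counts, or 10.53 and 13.69 FPKM, with a log2 ratio of 0.38 (0.27 to 0.48). Abca3 had a similar ratio of 0.40 (0.27 to 0.54) at 7.89 and 10.40 FPKM. Relative to genes of like length and GC content the ratios were 0.11 for Abca2 and 0.19 for Abca3. In both genes the raw counts were nearly equal, so they made up a larger share of the smaller Myl3-KO library. Abca13 had 151 and 96 counts (-0.27, -0.65 to 0.11). Abca12, the lipid transporter of the skin barrier, had 1 count in each library, and Abca4, the retinal transporter, had none.

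In the gene cluster on chromosome 11 from 109932190 to 110337716, Abca5, Abca8b and Abca9 had reads, and Abca6 and Abca8a had 0 in both libraries. Abca5, a lysosomal transporter, was the most abundant and was lower in Myl3-KO, with a ratio of -0.32 (-0.45 to -0.18). Abca9 had a ratio of 0.35 (-0.06 to 0.75) and Abca8b, with 186 and 152 counts, of 0.09 (-0.22 to 0.41). The intervals of Abca9 and Abca8b included 0. The rodent genes Abca14, Abca15 and Abca16, adjacent on chromosome 7, were at 0 in both libraries, as was Abca17.

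Among the exporters of subfamily B at the plasma membrane, reads came almost entirely from Abcb1b (7.66 and 10.75 FPKM, log2 ratio 0.49, 95% interval 0.32 to 0.65). It had the second largest ratio of the members with at least 100 counts. Abcb4, the phosphatidylcholine exporter of bile, had 5 counts in each library, Abcb11, the bile salt pump, had 2 in each, and Abcb5 had none. Of the members in organelles, the mitochondrial Abcb8 had 669 and 625 (0.29, 0.13 to 0.45) and Abcb10, which takes part in haem synthesis, had 535 and 478 (0.22, 0.04 to 0.40). Abcb6 had 22 and 18 counts, and the lysosomal peptide transporter Abcb9 had 5 and 2. Of 8 genes of mitochondrial iron-sulfur and haem synthesis, all past the filter, 4 were higher and 4 lower, with a median of -0.01, from Glrx5 at -0.34 to Ppox at 0.28. Abcb10 overlaps Gm20388, which had 807.71 and 560.82 counts, on the other strand. Reads of such overlaps may have been divided by the counting, whose use of strand is not given in the sources used here.

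The multidrug resistance-associated proteins of subfamily C took more reads than any other subfamily of transporters, 357.0 CPM in control and 413.2 CPM in Myl3-KO cells. Abcc1, an exporter of glutathione conjugates and leukotrienes, had 2936 and 2523 counts with a ratio of 0.17 (0.09 to 0.24). Abcc5, an exporter of cyclic nucleotides, had 2861 and 2649 counts and 0.27 (0.20 to 0.35). Relative to genes of like length and GC content these ratios were 0.04 for Abcc1 and 0.14 for Abcc5. Abcc10 had 225 and 212 (0.30, 0.02 to 0.58) and overlaps Dlk2 on the other strand, which had 623 and 465 counts. Abcc4, the exporter of cyclic AMP and prostaglandins, had the opposite sign at 255 and 175 counts, with an interval that included 0 (-0.16, -0.44 to 0.13). Abcc3 had 8 counts in each library, Abcc2 1 in each, Abcc12 0 and 1, and Abcc6 1 and 0. Abcc6, whose loss causes ectopic mineralisation of soft tissue, was thus not detectable above the floor. Of 6 genes of pyrophosphate and phosphate handling, 4 were higher and 2 lower with a median of 0.13. In that list Alpl, the phosphatase that degrades pyrophosphate, had 46 and 7 counts (-2.33, -3.72 to -1.17), Enpp1 201 and 175 (0.19) and Ank 1191 and 1064 (0.22). The sulfonylurea receptors Abcc8 and Abcc9, regulatory subunits of ATP-sensitive potassium channels, were at 0 in both libraries, and so were the pore genes Kcnj8 and Kcnj11. Of 9 xenobiotic and glutathione regulators, 7 passed the filter, 3 higher and 4 lower with a median of -0.04, and the drug-sensing receptors Nr1i2 and Nr1i3 were at 0.

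Subfamily D serves fatty acid import into peroxisomes and cobalamin release from lysosomes. Abcd3, a peroxisomal importer of long and branched acyl chains, was abundant at 18.25 and 18.00 FPKM, and its ratio was -0.02 (-0.15 to 0.11). Abcd2, a peroxisomal transporter of fatty acyl chains, had 50 and 67 counts, or 0.51 and 0.90 FPKM, and a ratio of 0.81 (0.26 to 1.37). Abcd4, the lysosomal cobalamin member, had 272 and 257 counts and 0.30 (0.05 to 0.56). Of 3 genes of peroxisome membrane import, 1 was higher and 2 were lower, with a median of -0.04.

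Abcg2, an exporter of drugs, urate and porphyrins, was the only member of subfamily G with 10 counts or more. It had 634 and 409 counts and a ratio of -0.25 (-0.43 to -0.06). Its FPKM of 17.81 and 12.51 gave a log2 ratio of -0.51, so the count and length-scaled values differed. The length implied by its counts and FPKM was 2.02 kb in the control and 2.43 kb in Myl3-KO, while its transcript with the longest coding sequence is 5.72 kb. The deposited FPKM thus used another length for Abcg2 in each library. The same held in the other direction for Abca5, at 8.23 and 7.40 kb, which had an FPKM ratio of -0.16. Of 23 members with at least 0.5 FPKM in both libraries, these were the 2 whose implied length differed by over 0.1 on the log2 scale. With the stricter minimum of 100 counts and 1 FPKM in both libraries, 9.25% of 10280 genes differed by that much. Abcg3, a rodent gene, had no reads.

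Among ABC proteins whose symbols lie outside the rule, the peptide transporter subunits Tap1 and Tap2 had ratios of 0.55 (0.29 to 0.81) and 0.53 (0.35 to 0.71). Tap1 had 236.7 and 264.74 counts and Tap2 had 474.95 and 524.92. Cftr had 0 counts in both libraries.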

How the data were processed

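RNA of 1 control and 1 Myl3-KO culture was sequenced, and the authors deposited a table with an expected count (estimated reads, not normalized) and FPKM for 22156 genes. The labels name a SMARTER library kit, whereas the methods describe enrichment on oligo beads and random priming. Per the labels, the submitters' processing notes name the builds GRCm38 and mm10. The aligner, the counting tool and the use of strand are not given in the sources used here. The control column is headed NC and was read as control since the other is headed KO.

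CPM were taken relative to the summed counts of each library. Log2 ratios were computed where both libraries together had 10 counts or more, and counts under 3 were raised to 3. Intervals are 95% Clopper-Pearson intervals on rounded counts. Their coverage was checked only on simulated independent Poisson counts, the model that the intervals assume. That check cannot show their coverage for the reads of these libraries. PCR reads are not independent molecules, so intervals and floors cover counting error only. Count models such as edgeR and DESeq2 need replicates to estimate the spread, so neither was used for testing. The factors of edgeR 4.0.16 and DESeq2 1.42.0 (R 4.3.3) served as other scalings. Other steps used Python 3.11.15 with Biopython 1.88, scipy 1.17.1, pandas 2.3.3, numpy 2.4.6 and matplotlib 3.10.9.

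The members, the lists and the alternatives were chosen with earlier results of these data known. Members are named, except for 2 genes whose results are not reported here, with counts, and those with 100 counts or more also with ratios or FPKM. Ratios or FPKM of members from 10 to 100 counts are given in the plots and for Abca1, and other genes come from the lists of roles and cell markers. Gm20388 and Dlk2, named for their overlap, and the promoters were chosen after the values were seen. Coordinates and transcripts are from GENCODE M21 on GRCm38, in which all 50 members were found, and promoters are from RefSeq on GRCm38.p6. For genes with several starts (6 members) the window with most CG dinucleotides was counted, and a motif in any window. Transcript length is that of the transcript with the longest coding sequence. Length and GC content were matched in quantile bins.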

Additional observations from a re-analysis of the deposited data

How the results depend on the processing

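With 1 library per genotype, leaving out a library leaves no comparison, and no replicate error could be computed. No paired analysis was possible because each genotype has 1 library. No member reached a log2 ratio of 1 in either direction under any alternative to the scaling, the filter or the floor, and a limit of 0.5 gave 1 member higher and 1 lower. The median ratio of the members, 0.22, was 0.21 with TMM factors, 0.21 with DESeq2 size factors, 0.17 without the filter (31 members), 0.13 with at least 10 counts in each library (26 members), 0.23 from FPKM, 0.22 with 1 count added, 0.29 without subfamilies E and F, and 0.27 with Tap1, Tap2 and Cftr. Among alternatives chosen after seeing the data, at least 100 counts gave 0.20 and subtracting the median of genes of like length and GC content gave 0.07. TMM factors, DESeq2 size factors, FPKM and an added count changed the sign of 0 of 29 ratios, and the FPKM ratio moved 2, Abca5 and Abcg2, beyond their counting interval. The subtraction moved 7 of 24 beyond it and changed the sign of 2, and the cause was not tested. Low counts limit Abca1, Abcb1a, Abcb4, Abcb6 and Abcc3, whose intervals span both directions.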
